A study of Homo sapiens with 17 samples.

Results

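The circadian clock genes described here are the repressors and output factors NR1D1, NR1D2, CIART, PER1, PER2, PER3, CRY1, CRY2, DBP and TEF. They were chosen by name, and the group was selected on the fall of NR1D1 and TEF at 6 h, so the comparison of 6 h with 0 h is given for them as a description without a test. Of the 10 genes, 9 were found by symbol among the 58870 entries of the deposited table. No entry carried the symbol PER1. The entry with the Ensembl identifier of PER1, ENSG00000179094.16, carried the symbol AC129492.1, and it is given as PER1 here but kept out of the counts of members unless stated. All 10 entries passed the filter on low counts.

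Cells of MDA-MB-231, an established human line from a triple-negative breast cancer that the labels call mesenchymal basal B, received the death-receptor ligand TRAIL at 45 nM. The labels call this dose suboptimal. RNA was taken at 0, 1, 3, 6, 12 and 24 h, with 3 libraries per time and 2 at 1 h, 17 in all. All libraries, those at 0 h included, are labelled as TRAIL treated and no later library is labelled as untreated, so an effect of TRAIL and an effect of elapsed time since handling or feeding the cells cannot be told apart. No genotype or second agent was named in the labels. The cells were 1 line, and the labels do not say whether replicates were separate cultures, so the p-values measure only the spread between these samples, which may be technical.

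In the clock of mammalian cells, ARNTL (BMAL1) with CLOCK or NPAS2 activates genes through E-box sequences. The PER and CRY proteins and CIART repress that activator, and NR1D1 and NR1D2 (REV-ERB alpha and beta) are nuclear receptors that repress ARNTL through sites that the ROR receptors use for activation. DBP and TEF are PAR bZIP factors whose own genes are E-box targets and which activate other genes through D-boxes, where NFIL3 is a repressor. Most of these messages are short-lived, and in cultured cells several respond to serum, glucocorticoid or medium changes.

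The promoter windows of the members whose levels moved most, and of those that held the most motif matches, are shown so that the E-boxes, D-boxes and receptor sites can be seen beside the values. They come from RefSeq on GRCh38.p14, where all 10 members matched, with 14 windows between them. Each window has 300 bases, from 250 before to 50 after the start site, written 5′ to 3′ on the strand of the gene. Capitals mark a match, on either strand, to 1 of 4 motifs: the E-box CACGTG, the D-box (TTATGTAA, TTACATAA, TTACGTAA or TTATATAA), the ROR and REV-ERB half-site AGGTCA, and the cAMP response element TGACGTCA. Within the windows of the members no match overlapped a match of another motif.
NR1D1, chr17:40100540-40100839, minus strand: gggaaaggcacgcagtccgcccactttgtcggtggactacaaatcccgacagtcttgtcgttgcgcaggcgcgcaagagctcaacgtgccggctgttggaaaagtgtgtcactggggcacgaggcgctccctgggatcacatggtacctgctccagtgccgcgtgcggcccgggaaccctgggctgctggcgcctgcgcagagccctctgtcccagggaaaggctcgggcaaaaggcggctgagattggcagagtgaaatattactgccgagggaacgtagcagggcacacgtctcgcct
DBP, chr19:48637330-48637629, minus strand: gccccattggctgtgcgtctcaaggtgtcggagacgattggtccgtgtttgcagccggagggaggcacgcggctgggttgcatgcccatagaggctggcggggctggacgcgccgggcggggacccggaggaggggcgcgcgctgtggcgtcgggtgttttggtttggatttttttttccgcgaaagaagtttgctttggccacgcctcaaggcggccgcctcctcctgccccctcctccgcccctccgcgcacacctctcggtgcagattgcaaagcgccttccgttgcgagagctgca
TEF, second listed start, chr22:41381692-41381991, plus strand: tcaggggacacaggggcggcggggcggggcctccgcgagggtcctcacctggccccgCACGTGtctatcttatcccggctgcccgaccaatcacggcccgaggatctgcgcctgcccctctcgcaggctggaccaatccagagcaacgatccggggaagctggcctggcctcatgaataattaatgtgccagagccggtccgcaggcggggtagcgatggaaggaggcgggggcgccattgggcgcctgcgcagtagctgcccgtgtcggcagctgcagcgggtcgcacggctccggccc
PER1, chr17:8152355-8152654, minus strand: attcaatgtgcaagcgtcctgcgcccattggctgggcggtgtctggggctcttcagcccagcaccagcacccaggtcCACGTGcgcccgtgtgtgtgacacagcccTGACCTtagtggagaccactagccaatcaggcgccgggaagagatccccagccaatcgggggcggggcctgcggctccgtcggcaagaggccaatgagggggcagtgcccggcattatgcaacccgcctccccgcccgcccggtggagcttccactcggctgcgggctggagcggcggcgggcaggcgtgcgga
NR1D2, second listed start, chr3:23945871-23946170, plus strand: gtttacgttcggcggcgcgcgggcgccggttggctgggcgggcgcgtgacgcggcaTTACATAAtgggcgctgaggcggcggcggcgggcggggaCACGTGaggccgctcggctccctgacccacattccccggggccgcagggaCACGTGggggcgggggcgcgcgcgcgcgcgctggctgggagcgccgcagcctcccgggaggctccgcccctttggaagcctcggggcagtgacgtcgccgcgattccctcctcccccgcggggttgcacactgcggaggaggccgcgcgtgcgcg
CIART, chr1:150282304-150282603, plus strand: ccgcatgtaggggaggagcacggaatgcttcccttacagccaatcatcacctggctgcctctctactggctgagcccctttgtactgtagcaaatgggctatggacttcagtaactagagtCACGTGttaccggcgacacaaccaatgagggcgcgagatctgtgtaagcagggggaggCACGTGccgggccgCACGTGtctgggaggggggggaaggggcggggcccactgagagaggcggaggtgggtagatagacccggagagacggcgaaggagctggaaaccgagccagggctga
PER3, first listed start, chr1:7784041-7784340, plus strand: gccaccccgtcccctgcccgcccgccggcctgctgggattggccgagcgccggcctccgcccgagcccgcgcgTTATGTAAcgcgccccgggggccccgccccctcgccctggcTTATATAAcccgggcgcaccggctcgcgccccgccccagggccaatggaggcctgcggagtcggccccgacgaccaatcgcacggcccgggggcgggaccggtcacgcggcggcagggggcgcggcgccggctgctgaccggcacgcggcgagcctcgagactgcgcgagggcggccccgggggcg

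An E-box was found in 5 of the 14 windows, those of PER1, CIART, NR1D2 (second start) and both of TEF, whereas 7.26% of all 35116 promoter windows of that length held one. CIART held 3, at -129, -71 and -57 from the start site, and NR1D2 held 2, at -155 and -105. A D-box was found in 3 windows, in PER2 at -3, PER3 (first start) at -177 and -136, and NR1D2 (second start) at -194, against 1.43% of all windows. The half-site was found in PER1 at -144, as TGACCT on the strand of the gene, and in both windows of CRY2, against 13.8% of all windows. The cAMP response element was in 0 of the 14 windows and in 1.85% of all. The windows of NR1D1, DBP and CRY1 held none of the 4 strings, which says only that these letters are not in these stretches.

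Total estimated counts per library ranged from 13731520 to 19234924. The share of counts from mitochondrial genes differed between times, from a mean of 3.90% ± 0.240 (SD, n = 3) at 24 h to 8.68% at 1 h (n = 2), with 8.59% ± 0.521 (SD, n = 3) at 3 h, and its part in the results was not tested. Of 8 mesenchymal markers, 7 were above 1 CPM (counts per 1000000) in every library, with SPARC at 0.216 to 1.07 CPM. Of 10 luminal or epithelial markers, ESR1, PGR and FOXA1 stayed at or under 0.148 CPM and CDH1 at or under 1.01 CPM, whereas KRT8, KRT18, KRT19, EPCAM, ERBB2 and GATA3 were above 1 CPM in all libraries. Among markers of other cells, CD3E was at 0, PTPRC reached 0.334 CPM and PECAM1 3.98 CPM, while CD68, a lysosomal protein of macrophages that many cell lines also express, was at 57.6 to 98.2 CPM. The summed level of these last 4 markers was 76.5 to 87.6 CPM at 0 h, 58.7 to 64.9 CPM at 3 h and 95.6 to 102 CPM at 24 h, and its part in the results was not tested. In bulk RNA, fewer cells with a message and less message per cell cannot be told apart.

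Across the series, NR1D1, PER1, DBP and TEF, and NR1D2 over a smaller range, were low at 3 and 6 h and higher again at 12 h. NR1D1 and TEF were lower at 24 h than at 12 h, as was PER1 with a call that was lost in some alternative fits. PER2 and PER3 took another course, with PER2 still high at 3 h and low from 6 h on, and PER3 lowest at 12 h. CRY1 was highest at 6 h. CRY2 and CIART passed no test with all 17 libraries as scaled here (TMM), but each passed a test with some single library left out. In a joint test over 1, 3, 12 and 24 h, which leaves out both times that chose the genes, 7 of the 9 members found by symbol differed between times, and 8 of 10 with the PER1 entry, against 55.6% of the 15365 genes tested. That background is high, so this count alone sets the members little apart. All tests of single genes are edgeR quasi-likelihood tests with Benjamini-Hochberg adjustment over all genes tested and a threshold of 0.05, and changes are given as log2 fold changes with their standard error (SE).

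**Figure D1:**
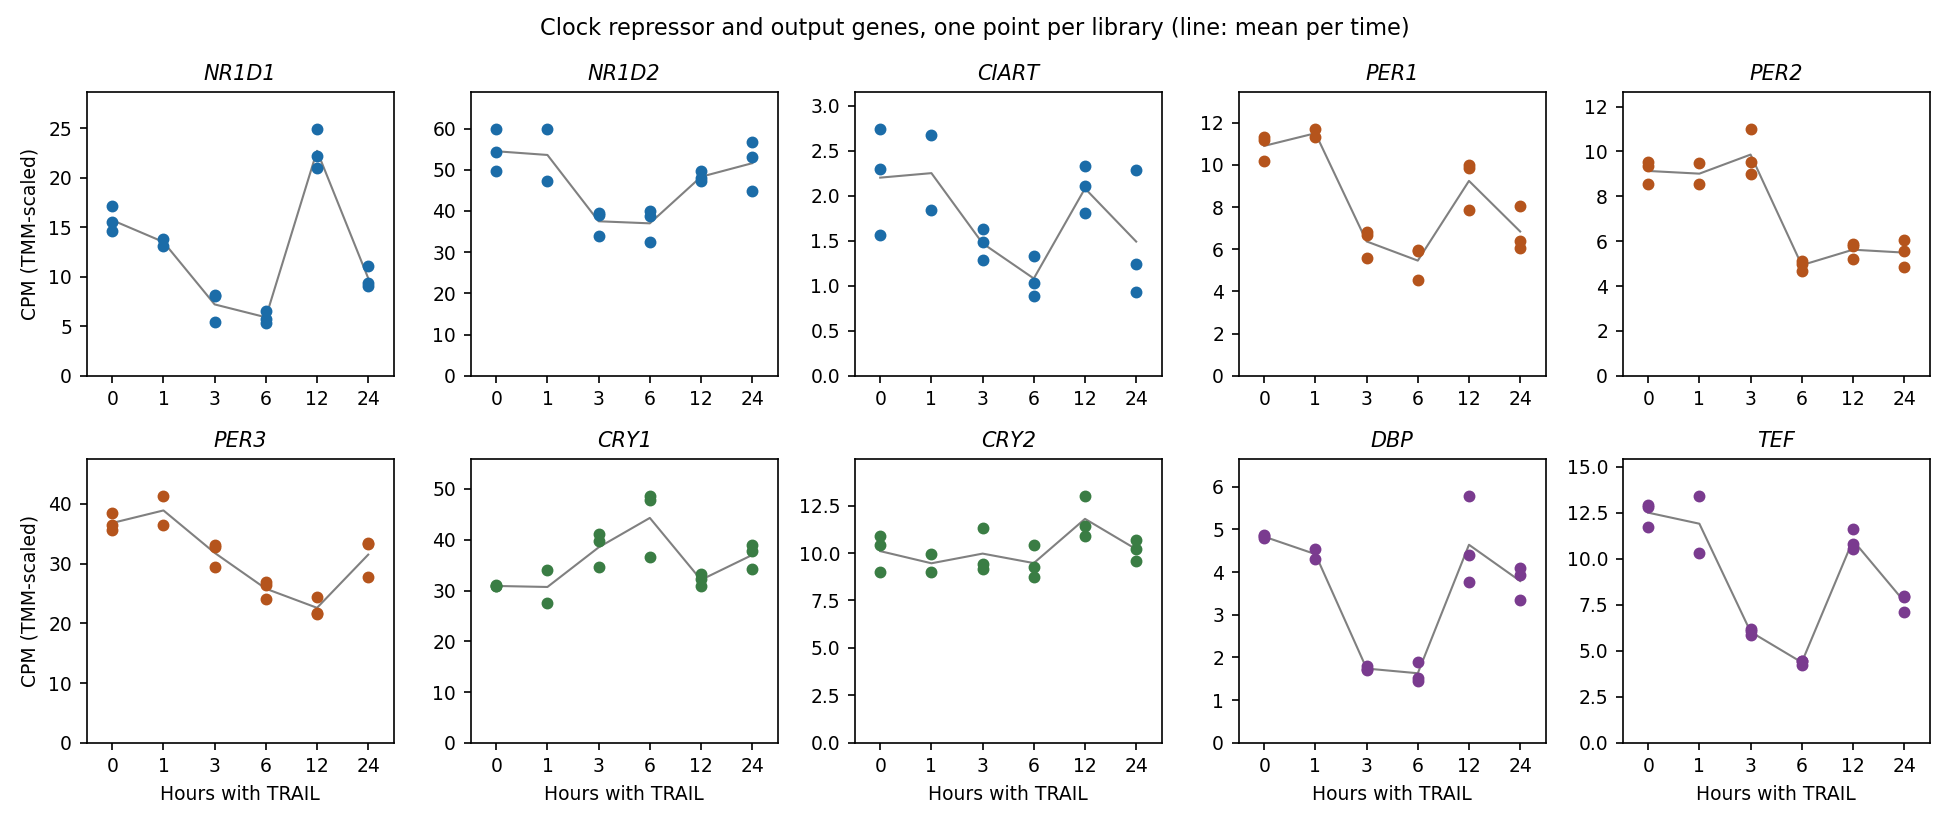
Normalised level (CPM) of the 10 genes in each of the 17 libraries against hours with TRAIL (times evenly spaced), with a line through the mean of each time. NR1D1, PER1, DBP and TEF, and NR1D2 over a smaller range, are low at 3 and 6 h and higher at 12 h, while PER2 is low from 6 h on.

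NR1D1 encodes the nuclear receptor REV-ERB alpha, the repressor that ties ARNTL to the rest of the loop. Its level was 14.6, 17.1 and 15.5 CPM at 0 h and 13.1 and 13.8 CPM at 1 h. It was 8.16, 8.08 and 5.38 CPM at 3 h, and 6.57, 5.77 and 5.34 CPM at 6 h. It then stood at 24.9, 21.0 and 22.2 CPM at 12 h, above every library of every other time, and at 9.08, 11.1 and 9.34 CPM at 24 h. The libraries of 3 h lay wholly under those of 1 h, and those of 24 h wholly between those of 3 h and 12 h. Between 1 h and 3 h NR1D1 fell by 0.90 (log2, SE 0.150, adjusted p = 0.000795), and between 3 h and 12 h it rose 3.15-fold (log2 1.66, SE 0.129, adjusted p = 2.28e-08). It fell again between 12 h and 24 h, by 1.20 (log2, SE 0.121, adjusted p = 1e-05). The level at 24 h was above that at 3 h (log2 0.45, SE 0.141, adjusted p = 0.0103), a call lost without the third library of 3 h (log2 0.27, adjusted p = 0.0902) or the second of 24 h (log2 0.36, adjusted p = 0.0626).

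NR1D1 lies on chromosome 17 at 40092787 to 40100725 on the minus strand (GENCODE 29, GRCh38). Its exons overlap those of THRA, the thyroid hormone receptor alpha gene on the opposite strand, over 263 bases, and its estimated count was not a whole number in all 17 libraries. Counts of the 2 genes could be exchanged if strand was not used, which is not given in the sources used here. From 1 h to 3 h, over which NR1D1 fell, THRA gave -0.49 (log2, SE 0.148, adjusted p = 0.0577), with all libraries of 3 h under those of 1 h. Against 0 h, THRA was lower at 3 h (log2 -0.73, adjusted p = 0.000763). THRA stood at 11.6, 9.24 and 10.0 CPM at 3 h and 23.0, 17.2 and 19.3 CPM at 12 h, and rose between them (log2 0.94, SE 0.129, adjusted p = 2.11e-05). From 12 h to 24 h, over which NR1D1 fell, THRA was at 19, 22.7 and 19.9 CPM (log2 0.06, adjusted p = 0.771). The part of the overlap in the result was not tested.

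NR1D2 (chromosome 3, 23945260 to 23980618), the paralogue REV-ERB beta, moved over a smaller range. It was at 49.6, 54.2 and 59.8 CPM at 0 h, 59.9 and 47.2 CPM at 1 h, and 39.1, 34.0 and 39.4 CPM at 3 h. At 6 h it was at 32.4, 38.8 and 39.9 CPM, at 12 h at 47.2, 48.1 and 49.7 CPM, and at 24 h at 44.9, 53.0 and 56.8 CPM. The libraries of 3 h lay under those of 1, 12 and 24 h without overlap. NR1D2 fell between 1 h and 3 h (log2 -0.51, SE 0.117, adjusted p = 0.0131) and rose between 3 h and 12 h (log2 0.36, SE 0.106, adjusted p = 0.0111). At 24 h it was above 3 h (log2 0.46, SE 0.106, adjusted p = 0.00128), and 24 h against 12 h gave 0.09 (adjusted p = 0.589). The first of these calls was lost without the first library of 1 h (log2 -0.34, adjusted p = 0.31) or the second of 3 h (adjusted p = 0.0569), and the call at 12 h without that same library of 3 h (log2 0.29, adjusted p = 0.0717).

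CIART (chromosome 1, 150282543 to 150287093), a repressor of the ARNTL and CLOCK complex, was near the limit of these libraries, with 14 to 44 estimated counts in each. Its mean was 2.25 CPM at 1 h, 1.47 ± 0.171 CPM (SD, n = 3) at 3 h and 2.08 ± 0.264 CPM (SD, n = 3) at 12 h, and at 24 h its libraries were at 2.28, 1.24 and 0.934 CPM. The change from 1 h to 3 h was -0.62 (log2, SE 0.330, adjusted p = 0.314) and that from 3 h to 12 h 0.50 (log2, SE 0.299, adjusted p = 0.197). Neither could be told from the replicate spread at this depth. The first library of 24 h decided the late values. Without it, 24 h against 12 h gave -0.92 (log2, adjusted p = 0.038) and the joint test an adjusted p of 0.0235, against 0.198 with all libraries.

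PER1, PER2 and PER3 encode the Period proteins, which enter the nucleus with the CRY proteins, and their messages differed in course. The PER1 entry (chromosome 17, 8140472 to 8156506) was at 11.3 and 11.7 CPM at 1 h, 6.67, 6.83 and 5.59 CPM at 3 h, 10.0, 7.88 and 9.83 CPM at 12 h and 6.38, 8.06 and 6.07 CPM at 24 h. The 1 h libraries were all above those of 3 h, and 1 library of 24 h lay inside the range of 12 h. PER1 fell between 1 h and 3 h (log2 -0.86, SE 0.150, adjusted p = 0.00131) and rose between 3 h and 12 h (log2 0.53, SE 0.138, adjusted p = 0.00513). From 12 h to 24 h it fell by 0.43 (log2, SE 0.133, adjusted p = 0.0419), a call that held in 6 of 9 alternative fits and in 9 of 17 fits with 1 library left out. It was lost with scaling to library totals (adjusted p = 0.0591), with the compared times alone (adjusted p = 0.0681), and without library 1 or 3 of 12 h (adjusted p = 0.168 and 0.124) or of 24 h (adjusted p = 0.0869 and 0.175). Without 1 of 4 libraries of 0, 1 and 3 h the adjusted p was 0.0503 to 0.0546.

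PER2 (chromosome 2, 238244038 to 238290102) stood at 9.49 and 8.53 CPM at 1 h and at 11, 9.01 and 9.54 CPM at 3 h, and the difference did not pass the test (log2 0.13, adjusted p = 0.611). It was at 4.68, 4.98 and 5.13 CPM at 6 h, 5.21, 5.77 and 5.89 CPM at 12 h, and 4.86, 6.07 and 5.54 CPM at 24 h. Every library from 6 h on lay under every library up to 3 h. PER2 was lower at 12 h than at 3 h (log2 -0.81, SE 0.116, adjusted p = 3.29e-05), and lower at 24 h than at 3 h (log2 -0.85, SE 0.117, adjusted p = 7.87e-06). From 12 h to 24 h the change was -0.04 (adjusted p = 0.861).

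PER3 (chromosome 1, 7784320 to 7845177) was at 41.3 and 36.5 CPM at 1 h, 32.8, 29.4 and 33.1 CPM at 3 h, 24.1, 26.5 and 26.9 CPM at 6 h, 21.6, 24.4 and 21.8 CPM at 12 h, and 27.8, 33.2 and 33.4 CPM at 24 h. From 1 h to 3 h PER3 gave -0.29 (log2, SE 0.0941, adjusted p = 0.0733), with all libraries of 3 h under those of 1 h. That change passed with no filter (adjusted p = 0.049), with trends in gene length and GC content removed (adjusted p = 0.00888) and without the first library of 24 h (adjusted p = 0.0434). The 12 h libraries lay under all those of 3 h and 24 h. PER3 fell between 3 h and 12 h (log2 -0.49, SE 0.0875, adjusted p = 0.000293) and rose between 12 h and 24 h (log2 0.47, SE 0.0864, adjusted p = 0.00222), the reverse of NR1D1 and TEF in both intervals. The level at 24 h against 3 h gave -0.02 (adjusted p = 0.892), and -0.23 (adjusted p = 0.00294) with trends in gene length and GC content removed. Its estimated count was not whole in 16 libraries. UTS2, which its exons overlap over 868 bases, was at 0 in all libraries. The exons of PER3 also overlap the antisense gene Z98884.1 over 482 bases. The level of Z98884.1 was not examined, and the part of that overlap was not tested.

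CRY1 and CRY2 encode the cryptochromes, which bind and repress the activator complex. CRY1 (chromosome 12, 106991364 to 107093829) was at 34.0 and 27.5 CPM at 1 h, 41.2, 34.7 and 39.7 CPM at 3 h, 36.6, 47.8 and 48.6 CPM at 6 h, 30.8, 33.3 and 32.2 CPM at 12 h, and 34.2, 37.8 and 39.0 CPM at 24 h. From 1 h to 3 h CRY1 gave 0.33 (log2, SE 0.115, adjusted p = 0.107). That change passed with trends in gene length and GC content removed (adjusted p = 0.00715) and without the first library of 6 h (adjusted p = 0.0467). The 12 h libraries lay under those of 3 h, and CRY1 fell between them by a small step (log2 -0.26, SE 0.102, adjusted p = 0.0473). That call held in 6 of 9 alternative fits and in 9 of 17 fits with 1 library left out. It was lost when libraries were scaled to their totals alone (log2 -0.16, adjusted p = 0.262) and without the first library of 3 h (log2 -0.22, adjusted p = 0.155). The joint call (adjusted p = 0.0393) held in 7 of 9 alternative fits and in 9 of 17 with 1 library left out, and was lost without the second library of 1 h (adjusted p = 0.102) or the first of 3 h (adjusted p = 0.101), among others. CRY2 (chromosome 11, 45847118 to 45883248) had the smallest range of the members, from a mean of 9.46 CPM at 1 h to 11.8 ± 1.08 CPM (SD, n = 3) at 12 h, and its change from 3 h to 12 h was 0.24 (log2, SE 0.112, adjusted p = 0.0949). With libraries scaled to their totals alone that change passed the test (log2 0.34, adjusted p = 0.0246), as did the joint test (adjusted p = 0.0315 against 0.102), and it also passed without the third library of 3 h (log2 0.33, adjusted p = 0.0346).

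The output factors DBP and TEF were low at 3 and 6 h and higher at 12 h, as NR1D1 was. DBP (chromosome 19, 48630030 to 48637438) was at 4.30 and 4.53 CPM at 1 h, 1.71, 1.79 and 1.72 CPM at 3 h, 1.90, 1.53 and 1.46 CPM at 6 h, 4.39, 3.76 and 5.78 CPM at 12 h, and 3.34, 4.09 and 3.94 CPM at 24 h. No library of 3 or 6 h reached any of the other times. DBP fell between 1 h and 3 h (log2 -1.35, SE 0.203, adjusted p = 0.000352) and rose 2.67-fold between 3 h and 12 h (log2 1.42, SE 0.183, adjusted p = 1.08e-05). Unlike NR1D1 and TEF it had no called change from 12 h to 24 h (log2 -0.29, adjusted p = 0.23), but whether the genes differ in that interval was not tested. Its depth was low, at 23 to 104 estimated counts per library. DBP overlaps SPHK2, on the opposite strand, over 661 exon bases, and its estimated count was not whole in all 17 libraries. SPHK2 gave -0.24 (adjusted p = 0.238) from 1 h to 3 h and 0.11 (adjusted p = 0.439) from 3 h to 12 h.

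TEF (chromosome 22, 41367333 to 41399326) was at 13.4 and 10.3 CPM at 1 h, 5.86, 6.06 and 6.17 CPM at 3 h, 4.23, 4.44 and 4.42 CPM at 6 h, 10.5, 11.6 and 10.8 CPM at 12 h, and 7.96, 7.13 and 7.94 CPM at 24 h. The 24 h libraries fell wholly between those of 3 h and 12 h, as they did for NR1D1. TEF fell between 1 h and 3 h (log2 -0.98, SE 0.122, adjusted p = 4.54e-05), rose 1.82-fold between 3 h and 12 h (log2 0.86, SE 0.111, adjusted p = 1.02e-05) and fell between 12 h and 24 h (log2 -0.52, SE 0.105, adjusted p = 0.00455). At 24 h it was above 3 h (log2 0.35, SE 0.116, adjusted p = 0.0161), a call lost without the first library of 3 h (adjusted p = 0.0504) and with DESeq2 (adjusted p = 0.0565).

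**Figure D2:**
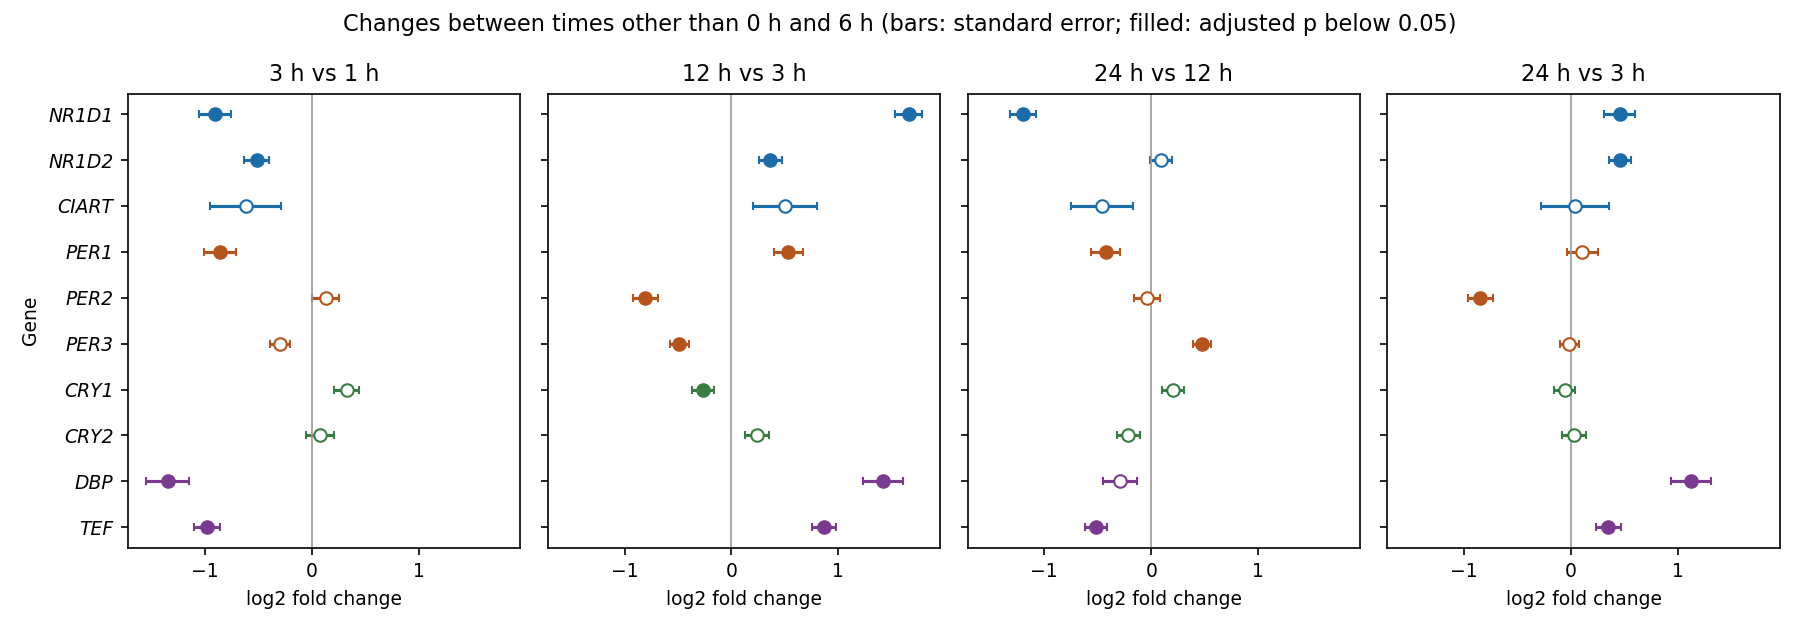
Log2 fold change with its SE for each of the 10 genes in the 4 comparisons that use neither 0 h nor 6 h, with filled points for adjusted p under 0.05. From 3 h to 12 h NR1D1, DBP, TEF, PER1 and NR1D2 lie above 0, and PER2, PER3 and CRY1 below it.

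The 4 comparisons that use neither 0 h nor 6 h are set beside all genes here. Between 1 h and 3 h 4 of the 9 found by symbol fell and 0 rose, 5 of 10 with PER1, when 5.73% of all genes were called, 2.56% as lower and 3.17% as higher, and the median change was -0.51 (log2) against -0.01 over all genes. The 4 were NR1D1, NR1D2, DBP and TEF. They include NR1D1 and TEF, whose fall at 6 h chose the group, so the count is not wholly free of that choice. Between 3 h and 12 h, 4 rose and 3 fell, when 18.9% of all genes rose and 19.3% fell (38.2% in either direction). Between 12 h and 24 h, 1 rose and 2 fell, against 6.42% and 5.60% (12.0% in either direction). Between 3 h and 24 h, 4 rose and 1 fell, against 27.4% and 26.8%, so 5 of 9 is near the 54.2% called in either direction among all genes.

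The comparisons with 0 h share the 0 h libraries with the contrast that chose the genes and with each other, and they are not independent of that choice. At 1 h 0 of 9 members were called by edgeR, 0 by DESeq2 and 0 at an unadjusted p under 0.05, against 0.312% of all genes (0.260% higher and 0.0521% lower). At 3 h NR1D1 (log2 -1.13), NR1D2 (-0.54), DBP (-1.48) and TEF (-1.05) were lower and CRY1 (0.32, adjusted p = 0.037) was higher. That is 5 of 9, against 17.7% of all genes (9.04% higher and 8.71% lower), and the CRY1 call was lost with scaling to library totals (adjusted p = 0.119) and in 5 of 17 fits with 1 library left out, where the adjusted p reached 0.141. PER1 at 3 h gave -0.78 (adjusted p = 0.000671). At 12 h 3 of 9 were called, NR1D1 as higher (log2 0.53, adjusted p = 0.00549) and PER2 (-0.70) and PER3 (-0.70) as lower, against 12.4% of all genes (5.96% higher and 6.48% lower). At 24 h NR1D1 (-0.68), PER2 (-0.74), PER3 (-0.23) and TEF (-0.70) were lower, 4 of 9 against 35.1% of all genes (18.0% higher and 17.1% lower), and PER1 gave -0.67 (adjusted p = 0.000861). The PER3 call (adjusted p = 0.0412) was lost with scaling to library totals (log2 -0.15, adjusted p = 0.213), with no filter (adjusted p = 0.0628), without the first library of 24 h (log2 -0.14, adjusted p = 0.187) and without library 1, 2 or 3 of 0 h (adjusted p = 0.0599, 0.0726 and 0.11).

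At 6 h against 0 h, the contrast that chose the genes, the log2 change was -1.42 for NR1D1, -1.52 for TEF, -1.58 for DBP, -1.03 for CIART, -1.01 for PER1, -0.89 for PER2, -0.56 for NR1D2, -0.51 for PER3, -0.09 for CRY2 and 0.52 for CRY1. Of all genes, 3.01% differed 2-fold or more in this contrast and 2.06% were lower by that much. CIART and PER1 lie just past a 2-fold difference and PER2 just short of it. From 3 h to 6 h the values were -1.0 for PER2, -0.46 for TEF and -0.29 for NR1D1.

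Over all 6 times the highest mean was 3.85 times the lowest for NR1D1, 2.96 for DBP, 2.86 for TEF, 2.11 for PER1, 2.08 for CIART, 2.00 for PER2, 1.72 for PER3, 1.47 for NR1D2, 1.44 for CRY1 and 1.25 for CRY2. The lowest mean was at 6 h for NR1D1, DBP and TEF, and the highest was at 0 h for DBP and TEF. The group was chosen on 6 h against 0 h, so the order of these ranges is not independent of that choice. Levels per kb are per length of the merged exons of a gene, not of a single transcript. At 0 h, NR1D2 led with 9.37 ± 0.879 CPM per kb. CRY1 with 6.11 ± 0.018 and NR1D1 with 5.67 ± 0.457 CPM per kb came next and did not differ beyond their spread (SD, n = 3). PER3 was at 4.54 ± 0.178, TEF at 2.65 ± 0.146, CRY2 at 1.63 ± 0.156, PER1 at 1.56 ± 0.0851 and PER2 at 1.33 ± 0.0771 CPM per kb. CIART at 0.816 ± 0.222 and DBP at 0.739 ± 0.00567 CPM per kb came last and overlapped, as did CRY2 and PER1. The place of NR1D1 in this order moved, from 2.13 ± 0.225 CPM per kb at 6 h to 8.19 ± 0.722 CPM per kb at 12 h, where it overlapped NR1D2 at 8.30 ± 0.221 CPM per kb.

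**Figure D3:**
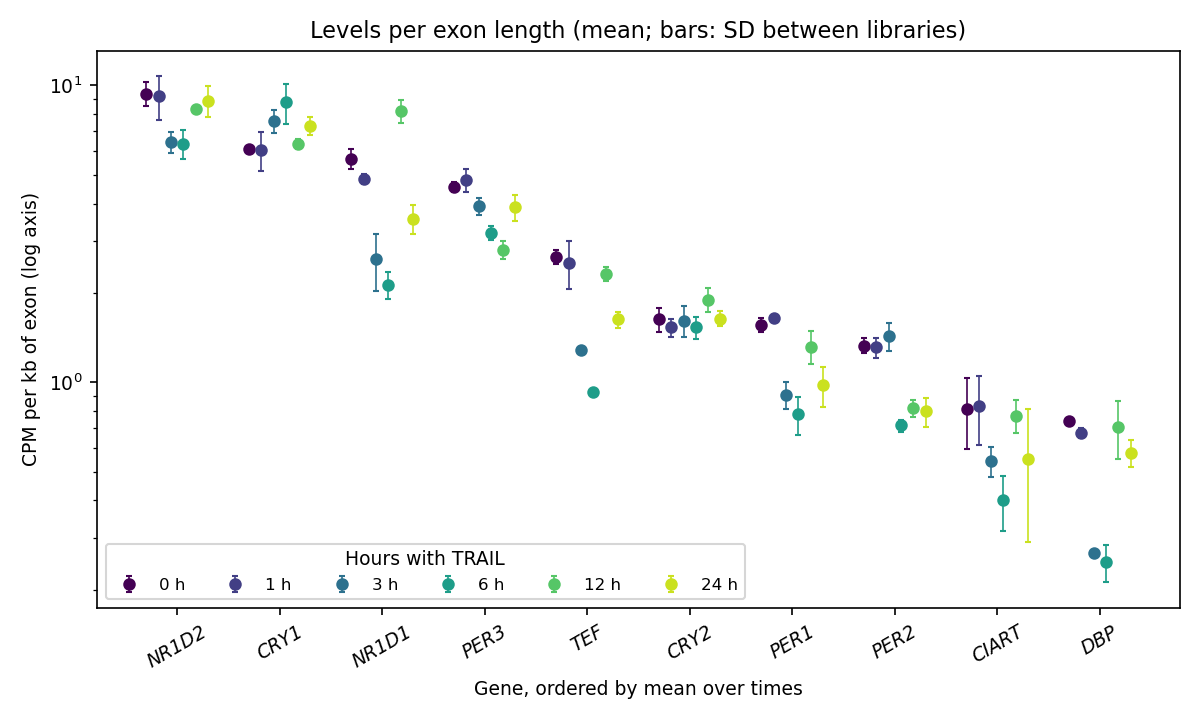
Mean CPM per kb of merged exon with SD at each time, on a log axis, with genes ordered by their mean. NR1D1 spans the widest range, from 2.13 CPM per kb at 6 h to 8.19 CPM per kb at 12 h. Its low level at 6 h chose the group, so that range is not independent of the choice.

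Across the 17 libraries, Pearson's r of log2 CPM between NR1D1 and the others was 0.874 for DBP, 0.868 for TEF, 0.825 for PER1, 0.683 for CIART, 0.637 for NR1D2, 0.455 for CRY2, 0.088 for PER2, -0.081 for PER3 and -0.79 for CRY1. PER2 correlated best with PER3, at 0.731. These are descriptions over libraries that include the choosing times and in which replicates share their time. Of 11321 genes with a mean log2 CPM of at least 2, those most like NR1D1 outside the group were CDKN1C (0.922), a cyclin-dependent kinase inhibitor, STEAP1 (0.918), and KCNN4 (0.914), a calcium-activated potassium channel. CDKN1C had means of 5.36 CPM at 1 h, 3.43 CPM at 3 h, 6.42 CPM at 12 h and 4.99 CPM at 24 h. STEAP1 had means of 14.6 CPM at 3 h and 18.6 CPM at 12 h, and KCNN4 of 47.6 and 63.9 CPM. The means of NR1D1 were 7.2 and 22.7 CPM, so the likeness is in course and not in size of change. Those most like TEF were CD58 (0.940), the ligand of CD2, ORAI3 (0.912), a calcium channel subunit, and OSGEPL1 (0.909), an enzyme of mitochondrial tRNA modification. At 3 h and 12 h the means were 28.5 and 37 CPM for CD58, 13.8 and 19.8 CPM for ORAI3, and 7.6 and 9.85 CPM for OSGEPL1. Those of TEF were 6.03 and 11 CPM, a larger relative change.

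Of 17 further clock genes, 16 were found by symbol and 13 passed the filter on low counts. RORB, HLF and USP2 did not, with at most 12, 7 and 7 counts in a library. In the joint test 12 of the 13 were called and RORA was not (adjusted p = 0.103), against the same 55.6% of all genes. The called genes were the activators ARNTL, ARNTL2, CLOCK and NPAS2, the repressors BHLHE40, BHLHE41 and NFIL3, the casein kinases CSNK1D and CSNK1E, the ubiquitin ligase subunits BTRC and FBXW11, and WEE1. From 3 h to 12 h 8 of the 13 rose and 3 fell (18.9% and 19.3% of all genes). From 3 h to 24 h 10 rose and 3 fell (27.4% and 26.8% of all genes), and from 1 h to 3 h 0 rose and 3 fell (3.17% and 2.56% of all genes). ARNTL, the activator that the REV-ERB receptors repress, was at 3.93, 2.41 and 3.59 CPM at 3 h, 5.88, 6.90 and 7.61 CPM at 6 h, 7.06, 9.13 and 8.33 CPM at 12 h, and 4.63, 5.39 and 5.40 CPM at 24 h. It rose between 3 h and 12 h (log2 1.31, SE 0.186, adjusted p = 3.11e-05) and fell from 12 h to 24 h (log2 -0.68, SE 0.170, adjusted p = 0.0151). NR1D1 also rose from 3 h to 12 h. Its course within that interval rests on the 6 h libraries, and its low level at 6 h chose the group. A difference in timing between NR1D1 and ARNTL is therefore not drawn from these values. From 3 h to 6 h the log2 change was 1.04 for ARNTL and -0.29 for NR1D1. From 6 h to 12 h it was 0.27 for ARNTL, with overlapping libraries, and 1.94 for NR1D1. These values that use 6 h are given without a test.

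NFIL3, the D-box repressor, was at 15.2, 14.6 and 14.8 CPM at 3 h and 24.0, 26.2 and 22.8 CPM at 12 h, and rose between them (log2 0.71, SE 0.0856, adjusted p = 4.93e-06). Of the E-box repressors, BHLHE41 rose from 3 h to 12 h (log2 0.60, SE 0.144, adjusted p = 0.00297), whereas BHLHE40 fell (log2 -0.41, SE 0.0596, adjusted p = 3.61e-05) and fell further to 24 h (log2 -0.39, adjusted p = 0.000638). WEE1, a cell-cycle kinase gene that the clock drives in some tissues, was at 36.5, 39.4 and 41.0 CPM at 0 h, 59.9 and 51.9 CPM at 1 h, and 34.0, 30.8 and 35.9 CPM at 3 h. It was the 1 of the 13 called at 1 h against 0 h (log2 0.52, SE 0.084, adjusted p = 0.0028), and it fell from 1 h to 3 h (log2 -0.74, SE 0.0856, adjusted p = 1.92e-05).

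**Figure D4:**
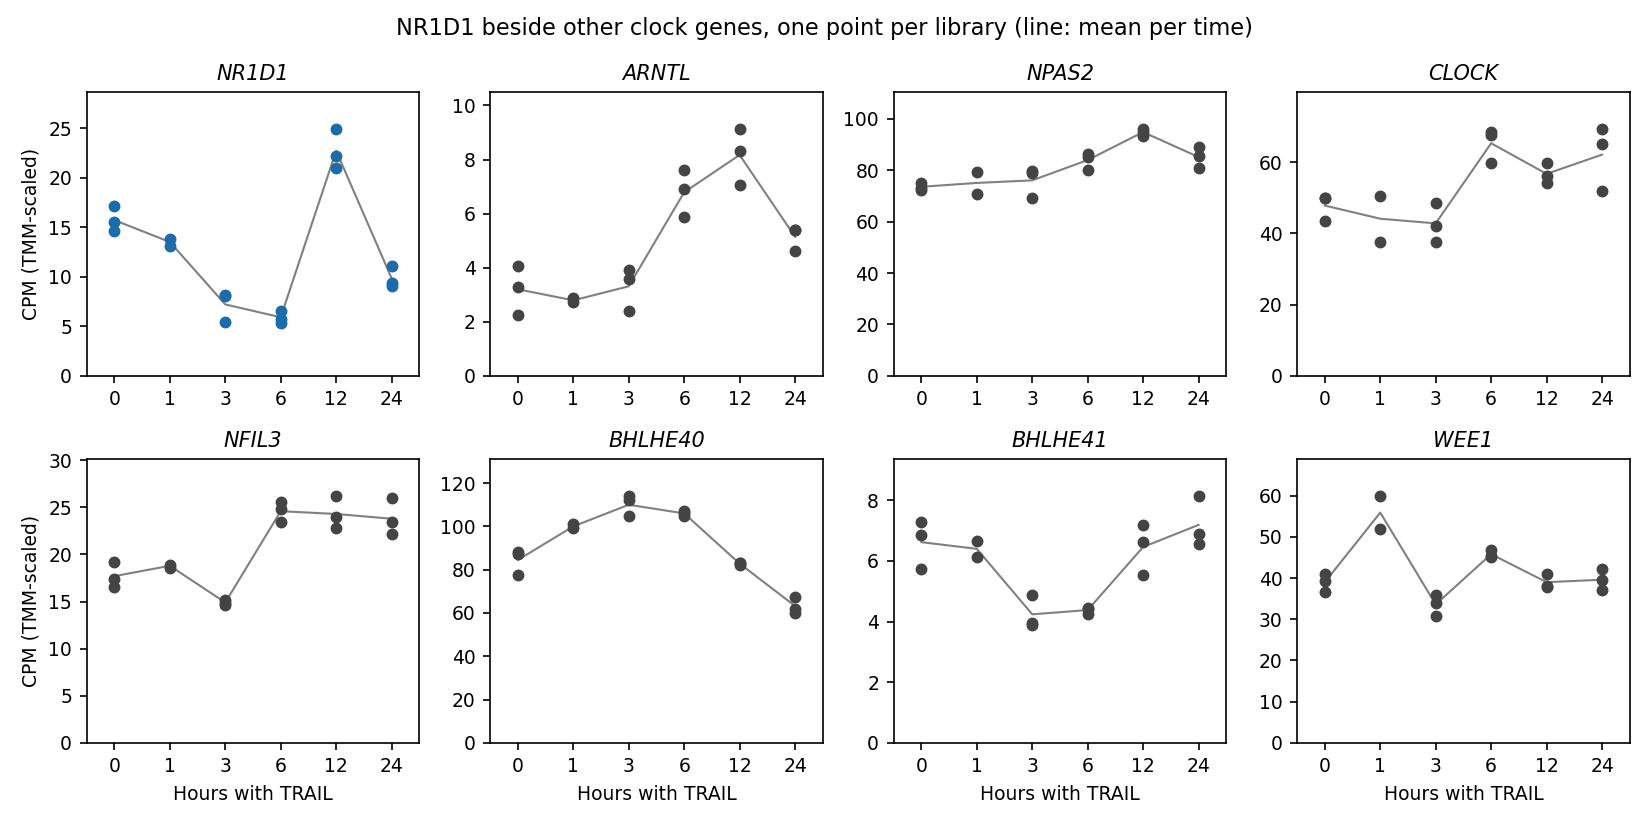
Normalised level (CPM) of NR1D1 beside ARNTL, NPAS2, CLOCK, NFIL3, BHLHE40, BHLHE41 and WEE1 in each of the 17 libraries against hours with TRAIL (times evenly spaced), with a line through the means. ARNTL and NR1D1 are both highest at 12 h. At 6 h ARNTL is above its level at 3 h and NR1D1 is at its lowest, but the low level of NR1D1 at 6 h chose the group.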

How the data were processed

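Poly(A) RNA of MDA-MB-231 cells was sequenced from stranded paired-end libraries, per the labels' protocols. The authors deposited RSEM expected counts per gene (estimated fragment counts, not scaled to depth or length, RSEM per the file name), of which 10.8% were not whole within 0.001. Cutadapt 1.18, STAR 2.7.0f and hg38 are named in the submitters' processing notes. The annotation release and the strand setting are not given in the sources used here.

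Expected counts were rounded and filtered with filterByExpr, which left 15365 genes. All 17 libraries entered 1 edgeR 4.0.16 quasi-likelihood fit (R 4.3.3, TMM, robust) with a mean per time. The common biological coefficient of variation was 7.06%. CPM are relative to TMM-scaled totals, log2 CPM use a prior count of 2, and CPM per kb use GENCODE 29 exon lengths. Of 58870 entries, 58597 matched GENCODE 29 without version. The fit was also run on simulated data, and the outcome is not given here. The alternatives were DESeq2 1.42.0, other scalings and filters, a replicate block, removal of length and GC trends, the compared times alone, averaged libraries and each library left out. The PER1 entry was added after seeing the data. The members and lists were chosen with earlier results of these data known, and some genes of the list of further clock genes are not reported here. The genes named are all members, the listed clock genes by the joint test or by the filter, and the 3 genes most correlated with NR1D1 and with TEF.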

Additional observations from a re-analysis of the deposited data

How the results depend on the processing

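Of 90 results with a test over the 10 genes, the PER1 entry included, 44 were called, 35 of these were called under every alternative run, and 0 of the called values reversed. Counts of called members stayed within 1.5 times the reported count under the alternatives run. Leaving out 1 library in turn, the joint count was 6 to 8, and the counts were 3 to 5 from 1 h to 3 h, 6 to 7 from 3 h to 12 h, 4 to 5 from 3 h to 24 h and 3 to 4 from 12 h to 24 h. Deviations from the mean of each time, in libraries with the same replicate number, had r from -0.199 to 0.211, over 0.1 in 8 of 40 pairs. The first libraries of 0, 6, 12 and 24 h all correlated positively (0.075 to 0.211). The first library of 1 h gave -0.166 to -0.147 with them, and the remaining pairs had both signs. Pairs of unlike number were not computed, so whether the replicate number marks a shared batch was not tested. With a replicate block the joint count was 6, since CRY1 was lost (adjusted p = 0.058). Libraries 2 and 3 of 6 h and of 24 h agreed more closely than other pairs (chi-square per gene 1.55 and 1.68, against 3.86 to 14.6), and averaging them cost CRY1 its joint call (adjusted p = 0.0623) and PER1 its fall from 12 h to 24 h (adjusted p = 0.0746).

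Values that changed sign were all uncalled, and the cause was not tested. At 1 h against 0 h (log2) the replicate block gave 0.030 for NR1D2, -0.067 for CIART and 0.020 for CRY1, removal of length and GC trends gave 0.0045 for PER2 and -0.0096 for CIART, and scaling to totals gave -0.017 for CIART. At 24 h against 3 h scaling to totals gave 0.13 for PER3 and 0.083 for CRY1, and no filter gave 0.0073 for PER3. At 24 h against 0 h averaging gave -0.020 for CRY2. Leaving out libraries, 1 h against 0 h ranged from -0.20 to 0.13 for NR1D2, -0.093 to 0.051 for PER2, -0.0065 to 0.16 for PER3, -0.27 to 0.28 for CIART, -0.17 to 0.13 for CRY1 and -0.27 to 0.098 for TEF. At 24 h against 3 h it ranged from -0.072 to 0.068 for PER3, -0.43 to 0.27 for CIART, -0.033 to 0.13 for CRY2 and -0.029 to 0.18 for PER1. At 24 h against 0 h it ranged from -0.16 to 0.011 for NR1D2 and -0.067 to 0.064 for CRY2, and at 12 h against 0 h from -0.29 to 0.095 for CIART and -0.25 to 0.081 for DBP. For CRY2 it ranged from -0.12 to 0.041 at 3 h against 0 h and -0.022 to 0.16 at 3 h against 1 h, and for PER2 from -0.12 to 0.043 at 24 h against 12 h. Depth was lowest for CIART, at 14 to 44 counts per library.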
